A study of Mus musculus with 6 samples.

Results

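Cornification is the last step of keratinocyte differentiation, and 9 of the enzymes that take part in it were studied here. The transglutaminases Tgm1, Tgm3 and Tgm5, the proteases Casp14, Asprv1 and Blmh, and the deiminases Padi1 and Padi3 cross-link or process proteins of the cornified layer. The dehydrogenase Sdr9c7 acts on its lipids. All 9 are called the enzymes below. The 9 were chosen by name, and their gene numbers were all found among the 24061 genes of the count table. Dorsal skin was taken at Day 14 from female C57BL/6 mice aged 8 to 14 weeks at use, which had received a daily intradermal injection of either 20 μg recombinant IL-31 (rIL-31) in 50 μl saline or 50 μl saline alone. RNA-Seq was carried out on 3 skin samples of rIL-31-treated mice and 3 of saline-treated mice. IL-31 is a cytokine of type 2 helper T cells that signals through receptors on keratinocytes and itch-sensing neurons, and the comparison asked which transcripts of the skin differ after its repeated injection.

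In the granular layer, a keratinocyte replaces its plasma membrane with a cornified envelope. Transglutaminases tie envelope proteins such as involucrin, loricrin and the small proline-rich proteins into this sheet by isopeptide bonds, and lipids are then attached to its outer face. Deiminases convert arginine residues of keratins and of keratin-binding proteins to citrulline, which loosens filaments and opens the proteins to proteases. In human families, inherited defects of TGM1 or SDR9C7 cause ichthyosis, defects of TGM5 cause acral peeling skin, and defects of PADI3 or TGM3 cause uncombable hair.

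The libraries held 23122953 to 25552684 counts in the rIL-31 group and 21710679 to 23963685 in the saline group. Because the labels and methods do not say that each sample came from a separate mouse, the p-values below measure the spread between these samples. The level of genes relative to the mean of all libraries followed their GC content differently between libraries, with Spearman correlations across genes of 0.381, 0.271 and -0.249 in rIL-31 replicates 1, 2 and 3, and of -0.237 to -0.115 in the saline libraries. RNA of whole skin was sequenced, so fewer cells of a type and less RNA per cell cannot be told apart. Keratinocyte genes that define the tissue were abundant, with Krt5 and Krt14 together at 134485 to 194780 counts in rIL-31 libraries and 73100 to 90506 in saline libraries.

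One of the 9 enzymes rose in rIL-31-treated skin, and none fell. Rising and falling here mean a Benjamini-Hochberg adjusted p (FDR) below 0.1 by the quasi-likelihood test of edgeR, taken over the 16371 genes with enough counts, which include all 9 enzymes. SE is the standard error of a log2 fold change. The enzyme that rose was Tgm5. This count of 1 stands beside 4.51% of all tested genes that rose and 3.73% that fell. At an unadjusted p below 0.05 the enzymes higher were 2, Tgm5 and Padi3, beside 10.3% of genes, and 1 was lower, Tgm3, beside 9.27%. DESeq2 called 2 enzymes higher and 1 lower, beside 6.41% and 5.76% of the genes it gave an FDR, and limma-voom 1 higher and 0 lower, beside 4.21% and 3.85%. None of the 9 passed the thresholds of the study's methods, which also ask for a change of more than 2-fold. In the edgeR fit these were met by 1.84% of genes. The study applied them with DESeq, another test, so this share is not the study's own yield. The median log2 fold change of the enzymes was 0.11, against 0.008 over all tested genes, and their normalized counts per 1000000 (CPM, with TMM library factors) summed to 1240 to 1369 in rIL-31 libraries and 1195 to 1236 in saline libraries. The libraries of the groups did not overlap in 4 of the 9 enzymes. They were higher in rIL-31 for Tgm5, Sdr9c7 and Padi3, as for 12.8% of all tested genes, and lower for Tgm3, as for 12.9%.

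**Figure D1:**
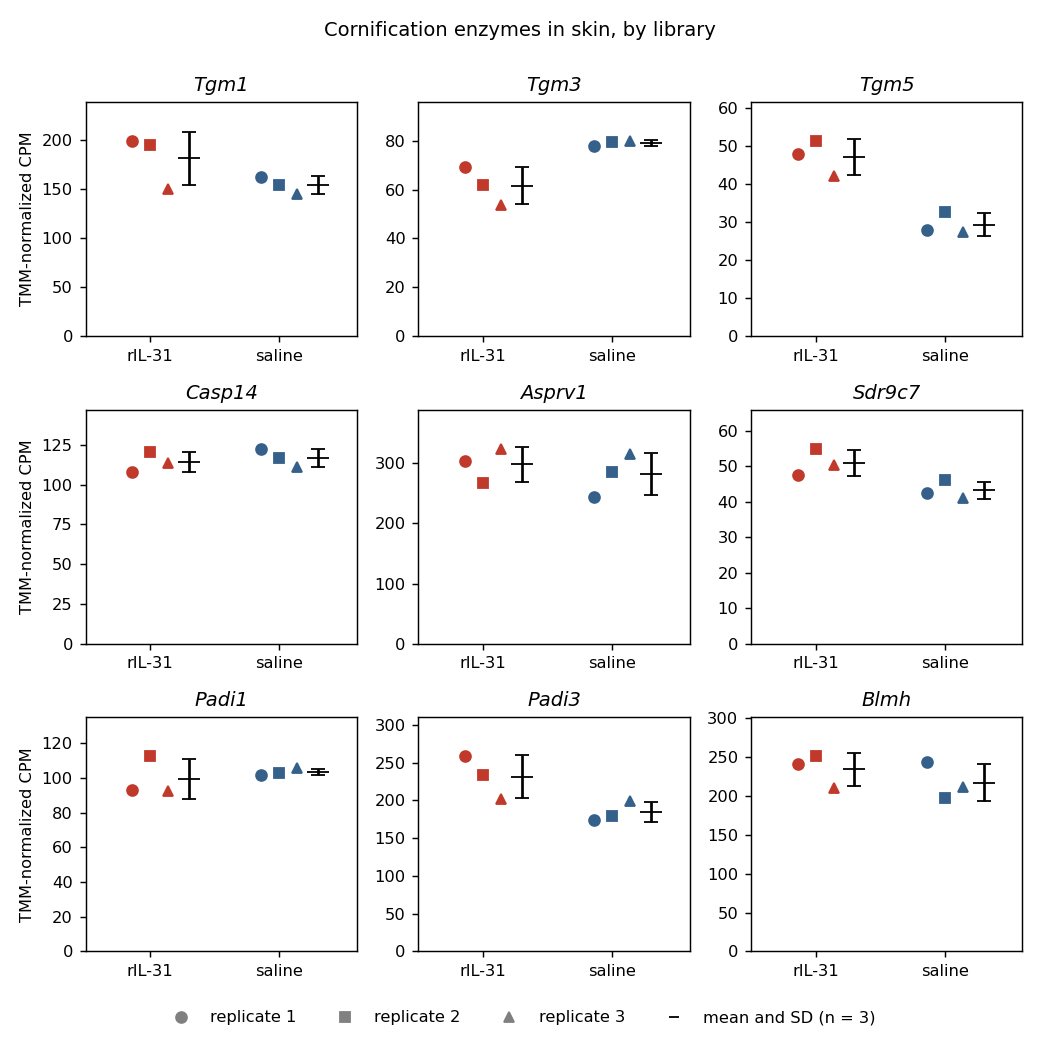
Each panel plots 1 enzyme as TMM-normalized CPM (y axis, from 0) in the 3 rIL-31 and the 3 saline libraries, with marker shapes for replicate numbers and the black bar for mean and SD. Tgm5 lies between 42 and 51.3 CPM in rIL-31 and between 27.3 and 32.7 CPM in saline, while the points of Casp14, Asprv1, Padi1, Blmh and Tgm1 overlap.

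Of the 3 transglutaminases, Tgm5 was higher, and Tgm3 and Tgm1 were short of the threshold. The fit did not compare these genes with each other. The 95% intervals of the log2 fold changes of Tgm5 (0.39 to 0.98) and Tgm1 (-0.04 to 0.51) overlapped. Tgm5, an enzyme of the upper epidermis that cross-links envelope proteins, had 47.9, 51.3 and 42 CPM in rIL-31 replicates 1 to 3, against 27.8, 32.7 and 27.3 CPM in saline replicates 1 to 3. Every rIL-31 library was thus above every saline library. The mean was 47 ± 4.71 CPM in rIL-31 and 29.3 ± 3 CPM in saline (SD, n = 3 each), a log2 fold change of 0.68 (SE 0.13, edgeR quasi-likelihood FDR 0.0146), or 1.61-fold with a 95% interval of 1.31 to 1.97. It stayed below an FDR of 0.1 in all 17 alternative fits, in which the log2 fold change ran between 0.58 and 0.77 and the FDR reached 0.0942 at most.

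Tgm3, a transglutaminase made as an inactive zymogen in the hair follicle and the cornifying epidermis, was on the other side. It had 69.2, 61.8 and 53.9 CPM in rIL-31 libraries, against 77.9, 79.7 and 80.1 CPM in saline libraries, so that all rIL-31 libraries were below all saline libraries. The saline libraries were close together, with a coefficient of variation of 1.49%, against 12.4% in rIL-31. Its log2 fold change was -0.36 (SE 0.12, 95% interval -0.62 to -0.11), and its edgeR quasi-likelihood FDR of 0.111 missed the threshold. The call depended on the fit: Tgm3 was lower at an FDR below 0.1 in 8 of the 17 alternatives, among them DESeq2 at 0.0541 and the fit corrected for GC content and transcript length at 0.064. It also passed without rIL-31 replicate 1, at 0.0856, and without rIL-31 replicate 3, at 0.0812, and was at 0.362 without saline replicate 2. Without rIL-31 replicate 3, 1968 of all genes were lower, against 610 with all 6 libraries.

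Tgm1, the membrane-anchored transglutaminase that starts envelope assembly, had 200, 195 and 151 CPM in rIL-31 replicates 1 to 3, and 163, 155 and 145 CPM in saline replicates 1 to 3. Replicates 1 and 2 of rIL-31 lay above all saline libraries, and replicate 3 lay among them. The log2 fold change was 0.24 (SE 0.13, edgeR quasi-likelihood FDR 0.329), with a 95% interval of -0.04 to 0.51. Without rIL-31 replicate 3 it was 0.35 at an FDR of 0.0238, and after correction for GC content and length it was 0.07 at an FDR of 0.717. The fit without rIL-31 replicate 3 called 2050 of all genes higher, against 739 with all 6 libraries. The longest Tgm1 transcript has 56.5% GC, and rIL-31 replicates 1 and 2, with the highest Tgm1 levels, were the 2 libraries with a positive GC trend. Its part in the Tgm1 level was not tested beyond this correction.

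Ratios within a library do not depend on its depth. The count of Tgm5 per count of Tgm3 was 0.692, 0.83 and 0.778 in rIL-31 libraries and 0.357, 0.41 and 0.341 in saline libraries, which is 2.08 times as much on average. The count of Tgm5 per count of Tgm1 was 0.24 to 0.278 in rIL-31 and 0.171 to 0.211 in saline libraries. The count of Tgm3 per count of Tgm1 was 0.316 to 0.358 in rIL-31 and 0.478 to 0.552 in saline libraries. The pairs were chosen with the values of these genes known, so the ratios are a description. For Tgm5 and Tgm3 the separation of the groups follows from that of each gene. An exact permutation test of the log2 ratios gave p = 0.1 for each pair. With 3 libraries per group it cannot give a lower value, so no conclusion is drawn from it.

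The start regions of Tgm5 and Tgm3 are given because their log2 fold changes stood furthest apart among the 9 enzymes. That of Tgm1 is given as the remaining transglutaminase of the 9. Windows from 250 bases before to 50 bases after an annotated start came from RefSeq (GRCm38.p6), which held all 9 enzymes. They were searched on both strands for 6 motifs. The AP-1 motif TGANTCA is in 7.81% of all 32851 windows and the STAT motif TTCNNNGAA in 8.3%. The C/EBP motif TTNNGNAA is in 40.7% and the KLF motif CCNCNCCC in 49.5%. The grainyhead-like motif AACCNGTT is in 2.09% and the TATA box motif TATAAA in 13.6%. Capitals mark matches to the grainyhead-like, TATA and STAT letters, and no other motif overlaps them.
Tgm5, chr2:121085792-121086091, minus strand: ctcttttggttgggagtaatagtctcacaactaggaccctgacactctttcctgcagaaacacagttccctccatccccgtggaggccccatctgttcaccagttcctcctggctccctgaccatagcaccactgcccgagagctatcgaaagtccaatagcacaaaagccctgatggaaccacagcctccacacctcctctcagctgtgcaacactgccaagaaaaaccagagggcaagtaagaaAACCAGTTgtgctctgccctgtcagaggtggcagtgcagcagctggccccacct
Tgm3, chr2:130012090-130012389, plus strand: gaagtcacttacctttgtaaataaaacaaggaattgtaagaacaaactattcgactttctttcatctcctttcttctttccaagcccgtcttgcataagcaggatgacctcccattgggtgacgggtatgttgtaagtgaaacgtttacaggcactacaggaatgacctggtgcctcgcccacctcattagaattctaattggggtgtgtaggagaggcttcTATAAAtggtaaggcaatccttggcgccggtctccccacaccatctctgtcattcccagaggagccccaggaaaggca
Tgm1, chr14:55713443-55713742, minus strand: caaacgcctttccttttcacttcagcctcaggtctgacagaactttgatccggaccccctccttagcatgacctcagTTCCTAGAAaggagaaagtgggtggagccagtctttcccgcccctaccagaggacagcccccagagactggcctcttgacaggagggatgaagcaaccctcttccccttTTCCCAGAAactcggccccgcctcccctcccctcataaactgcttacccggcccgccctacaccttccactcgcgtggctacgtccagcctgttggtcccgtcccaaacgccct
The Tgm5 window held AACCAGTT from position -4, counted from 0 at the first transcribed base, and no other match. The Tgm3 window held TATAAA from position -28, with C/EBP and KLF matches in lower case. The Tgm1 window held matches to the STAT letters from positions -173 and -64 and a KLF match in lower case. A second Tgm1 window and the windows of Padi1, Padi3, Asprv1 and Casp14 held none of the 3 motifs in capitals, while that of Sdr9c7 held both STAT and TATA matches and that of Blmh an AP-1 match. These are matches of letters only, and binding was not measured.

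Tgm5 spans chr2:121046111-121085841, Tgm3 chr2:129987794-130050399 and Tgm1 chr14:55700009-55713921. The Tgm3 and Tgm1 windows above belong to starts inside these limits. Tgm7 lies 7656 bases from Tgm5, and Tgm6 lies 62016 bases from Tgm3. Within Tgm3 the annotation places the lncRNA Gm52561 and the microRNA Mir6339, and within Tgm5 the pseudogene Gm14213, and since the use of strand is not stated, reads of such overlaps may not be separable.

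None of the 3 proteases passed the test, and their libraries overlapped between rIL-31 and saline skin. Casp14, a caspase of the cornifying keratinocyte that takes part in filaggrin breakdown rather than in cell death, had 108, 121 and 114 CPM in rIL-31 libraries, against 123, 117 and 111 CPM in saline libraries. The groups overlapped throughout, and the log2 fold change was -0.04 (SE 0.10, edgeR quasi-likelihood FDR 0.891). Its 95% interval was 0.836- to 1.14-fold. This rests on 2389 to 2928 counts per library.

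Asprv1, a retroviral-like aspartic protease that cuts the filaggrin precursor, had 304, 267 and 325 CPM in rIL-31 and 244, 286 and 315 CPM in saline libraries. These ranges overlapped, with a log2 fold change of 0.08 (SE 0.12, edgeR quasi-likelihood FDR 0.773) and an interval of 0.877- to 1.28-fold. Blmh, a cysteine protease found in most tissues that in the epidermis helps to degrade deiminated filaggrin to amino acids, had 241, 251 and 211 CPM in rIL-31 and 243, 197 and 212 CPM in saline libraries. Its log2 fold change was 0.11 (SE 0.12, edgeR quasi-likelihood FDR 0.68), with an interval of 0.9- to 1.29-fold, and it was 0.19 after correction for GC content and length (FDR 0.472). Casp14 lies at chr10:78711995-78718347, Asprv1 at chr6:86628174-86629710 and Blmh at chr11:76945656-76987389.

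Neither deiminase passed the test, and their libraries overlapped for Padi1 but not for Padi3. Padi3, which acts on trichohyalin in the inner root sheath and medulla of the hair and is also made in the granular layer, had 258, 234 and 202 CPM in rIL-31 replicates 1 to 3, against 174, 179 and 199 CPM in saline replicates 1 to 3. The groups did not overlap, but the lowest rIL-31 library was near the highest saline library. The log2 fold change was 0.33 (SE 0.12, edgeR quasi-likelihood FDR 0.151), or 1.26-fold with an interval of 1.05 to 1.5. Padi3 passed in 2 of the 17 alternatives. These were DESeq2, at an FDR of 0.096, and the fit without rIL-31 replicate 3, at 0.0154, in which 2050 genes were higher. After correction for GC content and length the log2 fold change was 0.17 (edgeR quasi-likelihood FDR 0.364), and its longest transcript has 56.5% GC.

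Padi1, which is made through the living layers of the epidermis, had 93, 112 and 92.2 CPM in rIL-31 and 102, 103 and 106 CPM in saline libraries. Replicate 2 of rIL-31 was above the saline libraries and the other two were below them. The log2 fold change was -0.06 (SE 0.11, edgeR quasi-likelihood FDR 0.827), with an interval of 0.81- to 1.14-fold. It was -0.19 after correction for GC content and length (edgeR quasi-likelihood FDR 0.339) and -0.17 without rIL-31 replicate 2 (FDR 0.498). Padi3 and Padi1 are neighbours on the minus strand of chromosome 4, at chr4:140785369-140810648 and chr4:140812981-140845778, with 2332 bases between them. The count of Padi3 per count of Padi1 was 2.78, 2.08 and 2.19 in rIL-31 libraries and 1.71, 1.74 and 1.89 in saline libraries. This pair too was chosen with its values known, and the ratio is a description. Gm13032, an lncRNA, overlaps 4531 bases of Padi1, and Gm52482 overlaps 1951 bases of Padi3.

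Sdr9c7 oxidizes the linoleate-derived part of ceramides, a step before they are bound to the envelope. It had 47.6, 55 and 50.2 CPM in rIL-31, against 42.4, 46 and 41.2 CPM in saline libraries, and lies at chr10:127898535-127911761. All rIL-31 libraries were above all saline libraries by a small margin. The log2 fold change was 0.24 (SE 0.11, edgeR quasi-likelihood FDR 0.287), or 1.18-fold with an interval of 0.989 to 1.41. It passed the threshold in none of the 17 alternatives, and the correction for GC content and length left the log2 fold change at 0.24.

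**Figure D2:**
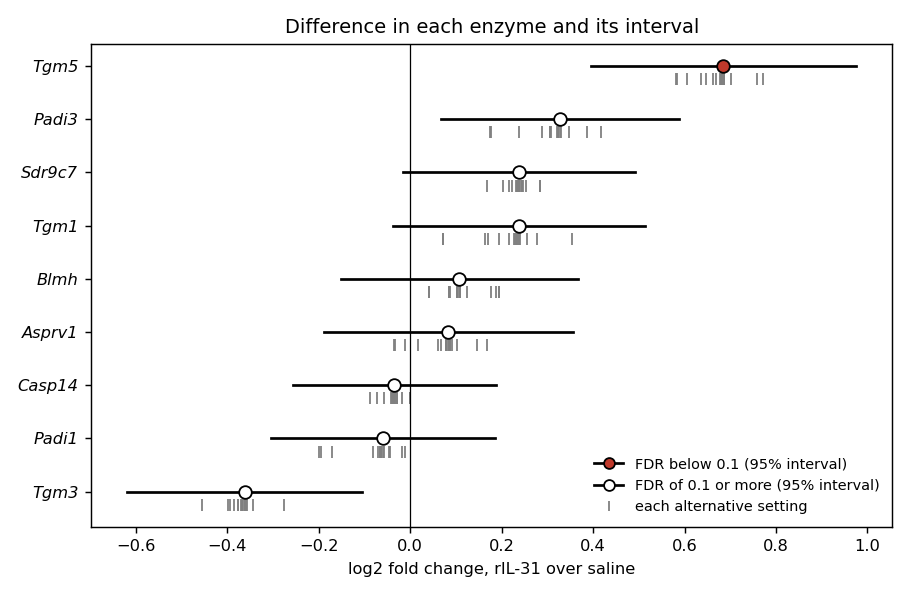
Log2 fold changes of the 9 enzymes, rIL-31 over saline (x axis), as points with 95% intervals from edgeR's fit, and as grey ticks for each of the 17 alternative fits. Tgm5 is the filled point at 0.68 and Tgm3 the lowest at -0.36, and the ticks of Asprv1 fall on both sides of 0.

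Per length of the longest annotated transcript, the enzymes spanned over an order of magnitude in level. Asprv1 was highest in both groups, at 193 ± 18.7 CPM per kb in rIL-31 and 182 ± 22.9 CPM per kb in saline skin (SD, n = 3 each). Below it came Blmh at 76.9 and 71.4, Padi3 at 69.9 and 55.6, Tgm1 at 63.8 and 54.1, and Casp14 at 48.9 and 50.1 CPM per kb in rIL-31 and saline skin. The ranges of Blmh, Padi3 and Tgm1 ran into each other in rIL-31 skin, as did those of Padi3, Tgm1 and Casp14 in saline skin. Padi1, at 26.4 in rIL-31 and 27.5 in saline skin, stood apart from its neighbours in both groups.

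The order of the 3 lowest enzymes differed between the groups. In rIL-31 skin Tgm5 had 18 ± 1.8, Sdr9c7 17.8 ± 1.32 and Tgm3 14.9 ± 1.84 CPM per kb (SD, n = 3 each), and the ranges of neighbours overlapped. In saline skin Tgm3 had 19.2 ± 0.285, Sdr9c7 15.1 ± 0.879 and Tgm5 11.2 ± 1.15 CPM per kb (SD, n = 3 each), and their ranges did not overlap. Lengths rest on GENCODE M21 transcripts of the same assembly, and which transcript the skin uses was not measured.

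**Figure D3:**
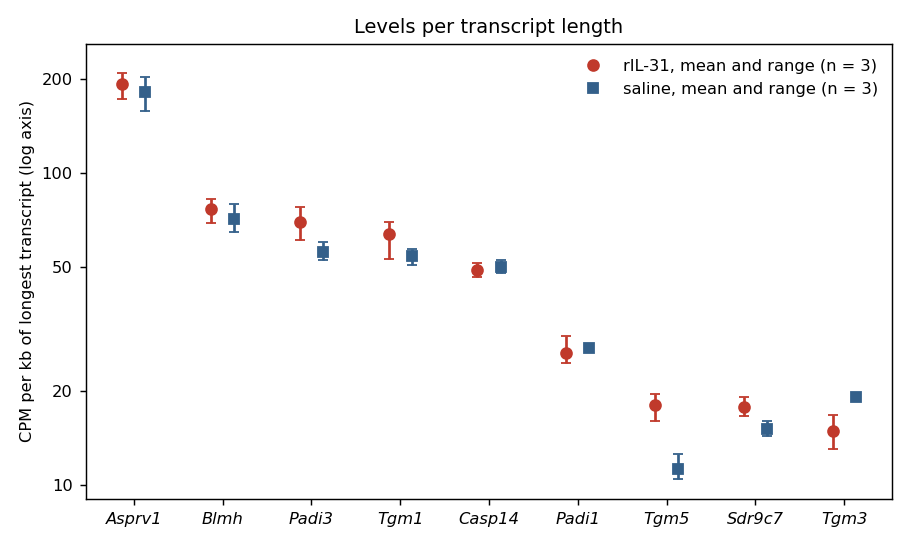
Mean level of each enzyme in CPM per kb of its longest transcript (y axis, log scale), with bars from the lowest to the highest of 3 libraries, rIL-31 as circles and saline as squares. Asprv1 is highest at 193 and 182, and Tgm5 is the lowest of the saline levels at 11.2 but not of the rIL-31 levels, at 18.

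The keratin genes Krt1, Krt10, Krt5 and Krt14 rose, so the enzymes were also set against their counts in the same library. Other epidermal keratin genes did not pass. Krt77 was at a log2 fold change of 0.06 (SE 0.11, edgeR quasi-likelihood FDR 0.835). Krt15 was at 0.45 (SE 0.15, edgeR quasi-likelihood FDR 0.1145). Krt1 and Krt10, the keratins of the suprabasal layers, rose by log2 fold changes of 1.21 (SE 0.12) and 0.71 (SE 0.11), and Krt5 and Krt14, those of the basal layer, by 0.90 (SE 0.14) and 1.08 (SE 0.17), each with an edgeR quasi-likelihood FDR no higher than 0.00581. Per 1000 counts of Krt1 plus Krt10, Casp14 had 17.1, 17.1 and 20.1 counts in rIL-31 libraries, against 33.1, 33.3 and 32.6 in saline libraries. Tgm3 had 10.9, 8.76 and 9.5, against 21, 22.7 and 23.4, and Padi1 had 14.7, 15.9 and 16.3, against 27.5, 29.2 and 30.9, in rIL-31 and saline libraries in turn. All rIL-31 values were below all saline values in 8 of the 9 enzymes.

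Tgm5 was the enzyme that overlapped. It had 7.57, 7.27 and 7.4 counts per 1000 of Krt1 plus Krt10 in rIL-31 libraries, against 7.5, 9.3 and 7.99 in saline libraries. The ratio of the group means was 0.897 for Tgm5 and 0.435 to 0.701 for the others. Against Krt5 plus Krt14 the same 8 enzymes were lower without overlap, at ratios of 0.398 to 0.641, and Tgm5 overlapped at 0.826. This pattern belongs to most of the transcriptome, because 78.4% of all tested genes were lower without overlap relative to Krt1 plus Krt10, and 77.3% relative to Krt5 plus Krt14. The median ratio of the 9 enzymes was 0.603 against Krt1 plus Krt10 and 0.558 against Krt5 plus Krt14, beside 0.566 and 0.525 over all tested genes.

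**Figure D4:**
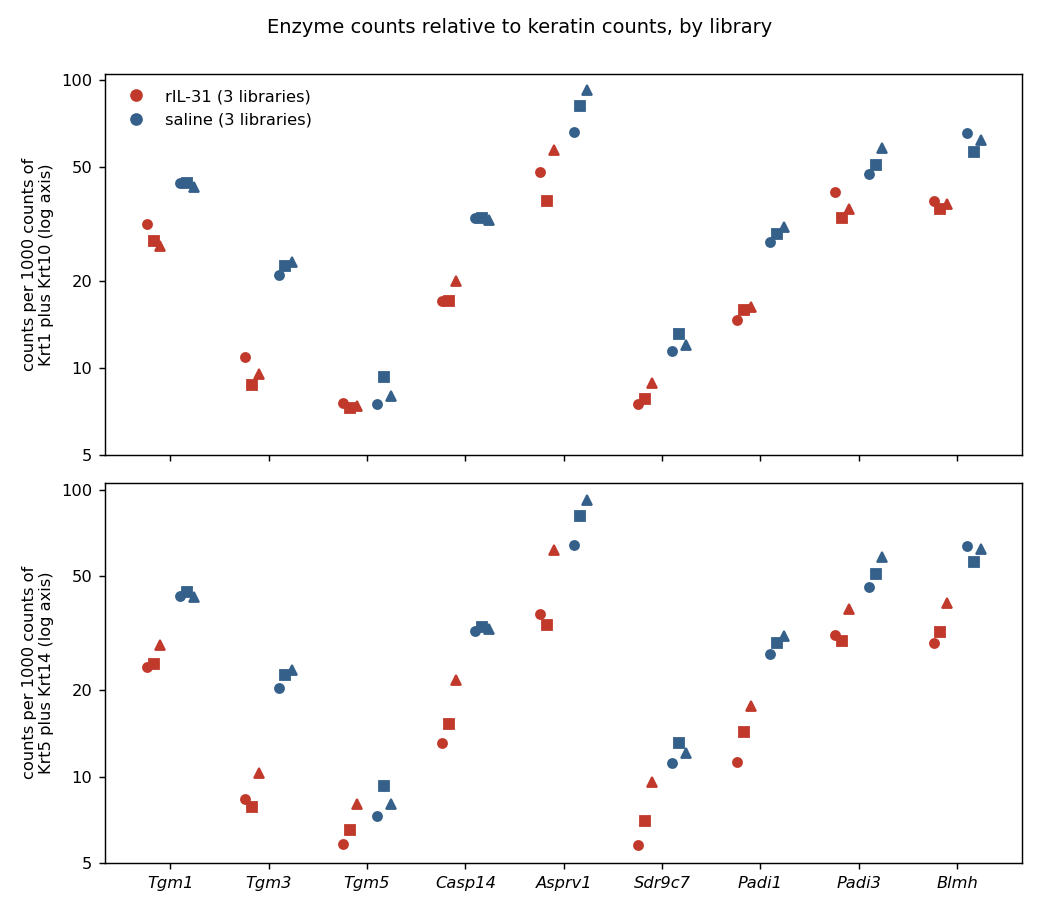
Counts of each enzyme per 1000 counts of Krt1 plus Krt10 (upper panel) and of Krt5 plus Krt14 (lower panel), on log axes, with 3 rIL-31 libraries to the left of 3 saline libraries. The groups lie apart for 8 enzymes in each panel and overlap for Tgm5, at 7.27 to 7.57 in rIL-31 and 7.5 to 9.3 in saline in the upper panel.

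Hair follicles also make Tgm3, Padi1 and Padi3, together with their substrate trichohyalin (Tchh). Of 12 markers of the inner root sheath and medulla, 1 fell, Krt26 at a log2 fold change of -0.32 (SE 0.10, edgeR quasi-likelihood FDR 0.0849), and 11 did not pass. Their summed level was 17760 to 22280 CPM in rIL-31 and 21000 to 23630 CPM in saline libraries. Tchh itself was at 6582 ± 1062 CPM in rIL-31 and 8715 ± 647 CPM in saline skin (SD, n = 3 each), a log2 fold change of -0.41 (SE 0.13, edgeR quasi-likelihood FDR 0.103), and its groups did not overlap. Per 1000 counts of these markers, Tgm3 had 2.77 to 3.42 counts in rIL-31 and 3.29 to 3.79 in saline libraries, which overlap. Padi1 had 4.6 to 5.19 in rIL-31 and 4.31 to 4.89 in saline libraries, which overlap too. Padi3 had 10.5 to 12.8 in rIL-31 and 7.38 to 9.03 in saline libraries, which do not, as for 23.4% of all tested genes that were higher without overlap on this scale.

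Among the other transglutaminases and deiminases, 1 of 7 tested genes rose and 6 did not pass. Padi4, the deiminase best known from neutrophils and the neighbour of Padi3 at a distance of 11129 bases, had 63.1 ± 5.75 CPM in rIL-31 and 46.7 ± 3.07 CPM in saline skin (SD, n = 3 each), with a log2 fold change of 0.44 (SE 0.12, edgeR quasi-likelihood FDR 0.0615). No gene of this list was higher at an FDR below 0.1 in 5 of the 6 fits without 1 library, nor after the correction for GC content and length, and 2 were without rIL-31 replicate 3. In each of these last fits, the corrected one and that without rIL-31 replicate 3, 1 gene of the list was lower. Of the neutrophil and eosinophil markers 4 of 6 tested rose, with a summed level of 140 to 171 CPM in rIL-31 and 94.6 to 124 CPM in saline libraries. S100a8 and Cxcr2 were tested and did not pass, while for S100A8 the study reports a significant increase by qRT-PCR. The 4 that rose were S100a9, Csf3r, Siglecf and Ccr3, with the libraries of the groups apart for each. The eosinophil genes among them, Siglecf and Ccr3, were 9.36-fold and 3.57-fold higher (edgeR quasi-likelihood FDR 0.0165 and 0.0321), Prg2 had 7, 18 and 7 counts in rIL-31 libraries and 2, 2 and 1 in saline libraries and was not tested, and Epx was at 0 in every library. Their part in the Padi4 level was not tested. Tgm6 was at -0.34 (SE 0.12, edgeR quasi-likelihood FDR 0.151), Tgm2, the widely expressed tissue transglutaminase, at 0.35 (SE 0.13, FDR 0.153) and F13a1, the transglutaminase of blood clotting and of macrophages, at -0.12 (SE 0.16, FDR 0.75). Padi6 and Epb42 had too few counts to be tested.

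Of the proteins that these enzymes act on or that make up the envelope and its filaments, 6 of 27 tested genes rose, 3 fell and 18 did not pass. The small proline-rich genes Sprr2a1, at a log2 fold change of 1.40 (SE 0.13), and Sprr1b, at 1.001 (SE 0.15), were among the 4 with the smallest p, together with Krt1 and Krt10. Ivl, which encodes the transglutaminase substrate involucrin, fell by 0.63 on the log2 scale, with 28.9 ± 2.69 CPM in rIL-31 and 44.8 ± 0.183 CPM in saline skin (SD, n = 3 each). Flg2 and Tchhl1, which encode relatives of filaggrin and trichohyalin, were the others that fell, at -0.59 (SE 0.14) and -0.54 (SE 0.14). The gene of filaggrin itself is not on this list. For filaggrin expression the study reports no significant difference, without showing the data. The median of the list was 0.31, above that of the 9 enzymes. Without 1 library, 4 to 13 of the list were higher and 1 to 4 lower, with 13 higher without rIL-31 replicate 3 and 1 lower without saline replicate 2 or without saline replicate 3. The fit without rIL-31 replicate 3 called 2050 of all genes higher, against 739 with all 6 libraries. The edgeR quasi-likelihood FDRs of Sprr2a1, Sprr1b, Krt1 and Krt10 were 0.00458 or less, and those of Ivl, Flg2 and Tchhl1 were 0.0132, 0.04 and 0.0494.

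Of 23 other proteases and inhibitors of cornification, 4 rose and 19 did not pass. Klk6, a kallikrein-related serine protease, was at 0.75 (SE 0.14), the serpin gene Serpinb12 at 0.85 (SE 0.22), the calpain gene Capn12, known from the hair follicle, at 0.37 (SE 0.10) and Lgmn, a lysosomal cysteine protease, at 0.35 (SE 0.11). Their edgeR quasi-likelihood FDRs were 0.0112, 0.0507, 0.0611 and 0.0947. The list also holds Elf3, a transcription factor that stands among the regulators below too and did not pass. The number that rose was 1 without saline replicate 1, without saline replicate 2 or without saline replicate 3, and 2 without rIL-31 replicate 1 or without rIL-31 replicate 2. It was 9 without rIL-31 replicate 3, where 2050 of all genes were higher.

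Of 18 enzymes and carriers of the lipid envelope, the pathway in which Sdr9c7 acts, 3 rose, 1 fell and 14 did not pass. Alox12b, the lipoxygenase whose product is passed on towards Sdr9c7, was at 0.48 (SE 0.15, edgeR quasi-likelihood FDR 0.0988). Elovl4, which makes very long fatty acids, was at 0.45 (SE 0.10) and the fatty acid carrier Slc27a4 at 0.51 (SE 0.11). Abca12, the lipid carrier of lamellar granules, fell by 0.62 on the log2 scale, with 164 ± 9.98 CPM in rIL-31 and 252 ± 19.2 CPM in saline skin (SD, n = 3 each). In each fit without 1 library 1 gene of the list was lower, while the number of genes higher was 0 without saline replicate 2 or without saline replicate 3, 1 without rIL-31 replicate 1 and 5 without rIL-31 replicate 3. In that last fit 2050 of all genes were higher.

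Of 20 transcription regulators of the granular layer, 6 rose and 14 did not pass, with a median log2 fold change of 0.28. Klf4, which is needed for the skin barrier in mice, had 633 ± 21.8 CPM in rIL-31 and 360 ± 9.38 CPM in saline skin (SD, n = 3 each), a log2 fold change of 0.82 (SE 0.09, edgeR quasi-likelihood FDR 0.000826). Zfp750, a regulator of terminal differentiation, was at 0.61 (SE 0.10), Grhl2, of the grainyhead-like family, at 0.44 (SE 0.11) and Tfap2c, an AP-2 factor, at 0.44 (SE 0.12). Grhl3 and Grhl1, of the same family as Grhl2, were at 0.27 (SE 0.11, edgeR quasi-likelihood FDR 0.182) and 0.09 (SE 0.09, FDR 0.641). A link of any of them to the Tgm5 level was not tested. The number that rose was 2 or 3 in each fit without 1 library other than rIL-31 replicate 3. It was 12 without that one, where 2050 of all genes were higher.

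**Figure D5:**
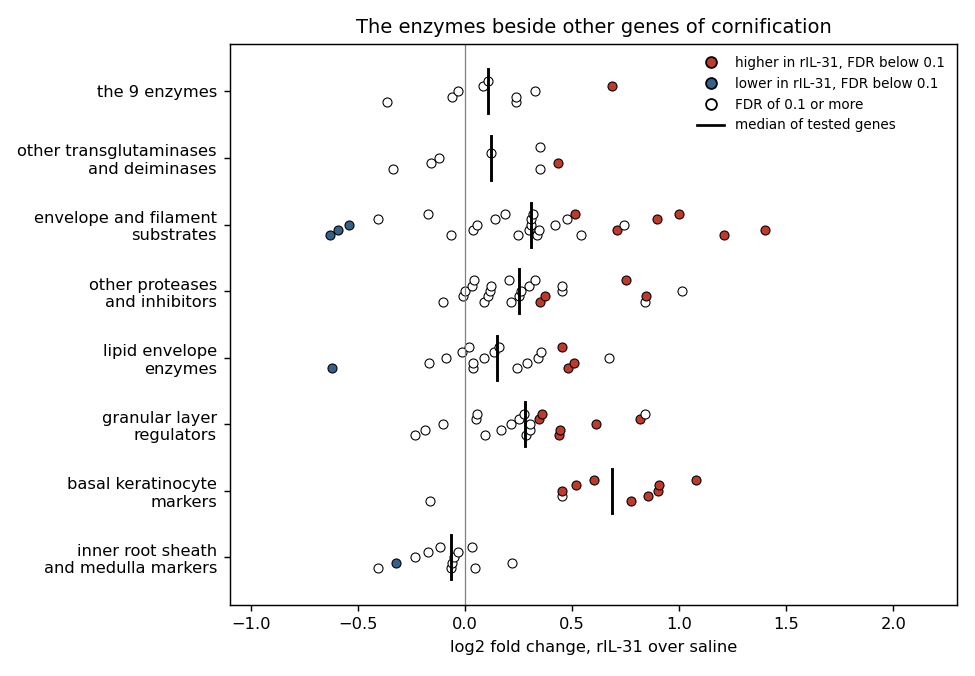
Log2 fold changes, rIL-31 over saline (x axis), of the tested genes in 8 lists (rows), with 1 point per gene, filled where the FDR was below 0.1, and a bar at the median. The 9 enzymes have 1 filled point and a median of 0.11, whereas 8 of 10 basal keratinocyte markers are filled and their median is 0.69.

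The 9 enzymes did not follow 1 common pattern across the 6 libraries. Over the 36 pairs, Pearson's r of log2 CPM ran from -0.845, for Casp14 and Asprv1, to 0.914, for Tgm5 and Sdr9c7, with a median of 0.0695 and 21 pairs above 0. Tgm3 ran against Tgm5 at -0.74 and against Sdr9c7 at -0.793. These values describe 6 libraries that differ in depth, GC trend and treatment. The part of each of these in the correlations was not tested. For single enzymes the most similar of 15204 other genes were Cadm3 for Tgm1 (r = 0.997), Axin1 for Tgm3 (0.99), Mmp10 for Tgm5 (0.995), Btbd11 for Casp14 (0.991), Mdh2 for Asprv1 (0.994), Pacs1 for Sdr9c7 (0.998), Abcb6 for Padi1 (0.992), Plpp2 for Padi3 (0.994) and Tfpt for Blmh (0.991), each over 6 libraries. Between 16 and 300 genes reached an r above 0.95 with a single enzyme, the most with Tgm1. The mean standardized profile of the enzymes was nearest to Scamp5, Tmem63a, Frmd3, Dpf2 and Ltb4r2, at an r of 0.988 to 0.998.

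Markers of the cells in whole skin differed in how they moved beside the enzymes. Of 10 basal keratinocyte markers 8 rose, with a summed level of 7664 to 11300 CPM in rIL-31 and 5299 to 5859 CPM in saline libraries. Of 9 suprabasal markers 2 rose, Krt1 and Krt10, 7 did not pass, and 3 of the 9 had a log2 fold change below 0. The sums over all 9 were 9357 to 10160 CPM in rIL-31 and 7229 to 7248 CPM in saline libraries. Krt10 alone had a mean of 4464 CPM in rIL-31 and 2731 CPM in saline libraries, and Krt1 had 1885 and 814.5 CPM. Of 14 tested hair shaft markers 2 rose and 1 fell, of 8 sebaceous gland markers 3 rose, and of 9 melanocyte markers 8 fell. None of 8 fibroblast or 6 adipocyte markers passed, and 5 of 7 mast cell markers rose. In muscle 2 of 8 markers fell, and of 7 endothelial, 8 macrophage and dendritic and 6 T cell markers 1 each fell. No marker of the keratinocyte, root sheath or hair shaft lists was at 0 in any library. The part of a changed cell makeup in the enzyme levels was not tested.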

How the data were processed

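Raw whole-number read counts per Entrez gene were deposited by the authors in 1 table for all 6 libraries, with no normalization. The tools listed by the submitters, without roles, are TopHat, DESeq, bcl2fastq and CASAVA (version 1.8), with mm10 as the build. Which program counted the reads, and how strand and multiply placed reads were handled, is not given in the sources used here. Names and positions came from RefSeq (GRCm38.p6), in which 85 of 24061 gene numbers had no name. These held 0.913% to 2.84% of the counts in rIL-31 libraries and 4.74% to 6.03% in saline libraries and were kept. Any 2 libraries of a group differed by a chi-square of at least 8.68 for each degree of freedom, so none was a repeat.

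Counts were filtered with filterByExpr (minimum count 10), scaled by TMM and tested by quasi-likelihood in edgeR (version 4.0.16 under R 4.3.3), with treatment as the only term, and p-values were adjusted over all 16371 genes. Standard errors are the log2 fold change over the root of F, and 95% intervals use the residual and prior degrees of freedom. Transcript length and GC content came from the longest GENCODE M21 transcript, known for 94.2% of tested genes. Likeness used log2 CPM of genes with a mean of at least 1 CPM. Keratin ratios use raw counts.

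The 9 enzymes and all lists were chosen with earlier results of these data known. Named are the enzymes, the 4 genes of each pathway list with the smallest p, all that passed where these were 5 or fewer, the nearest profiles, and the keratins used as denominators. Tchhl1, Flg2, Ivl, Krt77, Krt15, Grhl1, Grhl3 and Elf3 were named after their values were seen. Markers of cell types are given as counts of calls and summed levels, with few named beside the keratins: Krt26, Tchh and the neutrophil and eosinophil genes, of which Prg2 and Epx were named after their values were seen. Alternatives were DESeq2 (1.42.0), the exact test with RLE factors, limma-voom (limma 3.58.1), upper-quartile factors, scaling by library size alone, dropping the low-count filter, asking each library for at least 10 counts, a replicate block, unnamed genes left out, offsets for GC content and length with depth kept, these with the block, and each library left out. Precision is limited by 3 libraries per group.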

Additional observations from a re-analysis of the deposited data

How the results depend on the processing

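Tgm5 kept its direction and its call in all 17 alternatives. Tgm3 kept its direction and passed an FDR of 0.1 with DESeq2 (-0.37), the exact test (-0.37), upper-quartile factors (-0.39), the replicate block (-0.37), the GC and length offsets (-0.39) and these with the block (-0.40), each of which gave 1 enzyme lower, and it ran between -0.46 and -0.28 without 1 library. Padi3 passed with DESeq2 (0.32), which gave 2 enzymes higher, and ran between 0.24 and 0.42 without 1 library. Tgm1 ran between 0.16 and 0.35. Asprv1 changed sign with the GC and length offsets (-0.0338, and -0.0361 with the block) and ran between -0.011 and 0.17 without 1 library. Padi1 ran between -0.17 and -0.01 and Blmh between 0.04 and 0.19. Casp14 ran between -0.0872 and 0.000301. No value of Asprv1, Padi1, Blmh or Casp14 passed the threshold, and Tgm1 passed only without rIL-31 replicate 3 among these alternatives. Without 1 library 1 to 3 enzymes were higher and 0 to 1 lower. The fit without rIL-31 replicate 3 gave 3 higher and 1 lower, and called 2050 of 16670 genes higher and 1968 lower. The cause of these shifts was not tested.

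Over all genes, the replicate block gave 1177 higher and 1096 lower, and with the offsets 1281 higher. The block also gave 1 of the other transglutaminases and deiminases lower. DESeq2 gave 924 lower. Without 1 library the counts ran between 246 and 2050 higher and between 171 and 1968 lower, the lowest without saline replicate 2 and the highest without rIL-31 replicate 3. With the 2-fold threshold 114 genes were lower, 183 with the exact test, and 70 to 277 without 1 library. Samples with the same replicate number did not deviate together throughout (correlations of 0.0996, -0.045 and 0.318), and rIL-31 replicate 2 correlated best with saline replicate 1 (0.248), so the numbers were not taken as pairs. The intervals given for each enzyme set the limit of what 3 libraries per group show.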
